A study of Rattus norvegicus with 6 samples.

Results

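The transcripts of 6 ubiquitin ligases and 2 transcription factors of muscle atrophy, Trim63, Fbxo32, Fbxo30, Fbxo31, Nedd4, Cblb, Foxo1 and Foxo3, were followed in the tibialis anterior of rats late after repair of the peroneal nerve. Members were chosen by gene symbol, with earlier results of these data known. Every probe set that the platform annotation gives one of these single symbols was kept, dim ones included. All 8 genes were present, out of 10411 genes with a single symbol, and 13 probe sets stood for them, 1 each for 5 genes, 2 for Nedd4 and 3 each for Foxo1 and Foxo3. The ipsilateral muscles came from 3 male Wistar rats, 8 weeks old, whose peroneal nerve was cut and attached to the biceps femoris. After 4 weeks both nerve stumps were joined again, and 8 weeks of survival followed, which were read as counted from that repair. The contralateral muscles were the tibialis anterior of the other leg of the same 3 animals, numbered 4, 5 and 6. They belong to operated and anaesthetised rats, so they are not muscles of unoperated animals. One array was hybridised per muscle, 6 in all.

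When a muscle fibre loses its nerve or its load, it breaks down its proteins largely by tagging them with ubiquitin for the proteasome. The ligases choose which proteins are tagged, and Trim63 (MuRF1) and Fbxo32 (atrogin-1) are the classical muscle ligases that are induced in denervated muscle. Foxo1 and Foxo3 are transcription factors that enter the nucleus when insulin and growth factor signalling through Akt is low, and there they activate atrophy genes, Fbxo32 and Trim63 among them.

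Promoter sequences from RefSeq (GRCr8) were matched by symbol for 6 of the 8 genes, all but Fbxo32 and Foxo3. Both strands of the 250 bases before each gene's start were searched for GTAAACA, the core letters of a FoxO binding motif, and for CAGCTG, an E-box of the kind that myogenic factors bind. The motifs do not overlap each other in these windows. Trim63 is shown because it was the only one of the 6 to hold either motif, and Fbxo30 and Fbxo31 because they had the largest mean differences among the ligases. The windows are chr5:151816986-151817235 on the + strand for Trim63, chr1:7475589-7475838 on the + strand for Fbxo30 and chr19:66564675-66564924 on the - strand for Fbxo31. Each is written 5′ to 3′, and capitals mark the motifs.
Trim63: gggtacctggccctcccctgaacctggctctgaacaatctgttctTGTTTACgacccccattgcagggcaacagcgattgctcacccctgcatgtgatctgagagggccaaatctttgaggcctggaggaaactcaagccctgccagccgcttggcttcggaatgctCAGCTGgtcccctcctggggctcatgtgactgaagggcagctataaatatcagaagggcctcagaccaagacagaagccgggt
Fbxo30: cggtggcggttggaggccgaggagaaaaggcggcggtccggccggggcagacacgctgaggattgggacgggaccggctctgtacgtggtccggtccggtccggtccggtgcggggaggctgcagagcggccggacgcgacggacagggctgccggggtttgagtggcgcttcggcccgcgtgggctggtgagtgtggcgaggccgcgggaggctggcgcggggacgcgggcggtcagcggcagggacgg
Fbxo31: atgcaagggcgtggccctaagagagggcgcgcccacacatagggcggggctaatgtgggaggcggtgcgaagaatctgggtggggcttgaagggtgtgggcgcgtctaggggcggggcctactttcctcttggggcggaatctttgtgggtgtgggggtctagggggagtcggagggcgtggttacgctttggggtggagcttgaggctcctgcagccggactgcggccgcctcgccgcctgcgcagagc
In Trim63 the FoxO motif, read on this strand as TGTTTAC, began 205 bases before the start and the E-box began 83 bases before it. Among 27457 promoter windows of the same length, 3.25% held GTAAACA on either strand and 11.9% held CAGCTG. The bases were 56.8% G or C in the Trim63 window, 75.6% in that of Fbxo30 and 67.2% in that of Fbxo31. A match describes these letters and does not show that a factor binds there.

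Intensities were used as deposited, on a linear scale, and array medians ran from 60.2 to 66.6. A difference is log2 of ipsilateral over contralateral, after 15.8 was added to every intensity, and its standard error (SE) and 95% interval come from limma's paired fit of all 15866 probe sets that are not controls. The added value understates differences of dim probe sets. A probe set is called dim here where its mean lies below the 40th percentile, which corresponds to an intensity of 42.4. Skeletal muscle was present: all 14 skeletal muscle fibre markers lay above that level. These markers do not tell which muscle or which side was taken. Their summed intensity was 61171 to 68139 in ipsilateral and 68537 to 77723 in contralateral muscles. The sums did not overlap, but 68139 and 68537 were the 2 muscles of animal 6 and nearly equal. The median log2 difference of these markers was -0.25, -0.47 and 0.013 in animals 4, 5 and 6. Both arrays of animal 4 stood apart in the cre hybridisation spike, with 1476 ipsilaterally and 1117 contralaterally against 2481 to 3605 on the other 4. For beta-actin, signal at the 3′ end over signal in the middle was 2.87 in ipsilateral muscle 6 and 2.77 in contralateral muscle 4, and 1.36 to 1.68 on the remaining arrays. Spermatid markers were higher ipsilaterally in all 3 animals for 5 of 5 genes, beside 11.5% of all genes. All 5 had an unadjusted p under 0.05 in limma, beside 2.86% of all genes, and 3 of the 5 were not dim. Their sums were 179 to 1039 in ipsilateral and 87.4 to 294 in contralateral muscles, the highest being ipsilateral muscle 4. The part of these features in the results below was not tested, and values with 1 animal left out are given where they move a mean by over 1.5 times. In limma's fit 0 of 15866 probe sets had a Benjamini-Hochberg adjusted p under 0.05 (0%), while 863 (5.44%) had an unadjusted p under 0.05. No member passed after adjustment, and the members' adjusted p-values ran from 0.879 to 0.992.

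**Figure D1:**
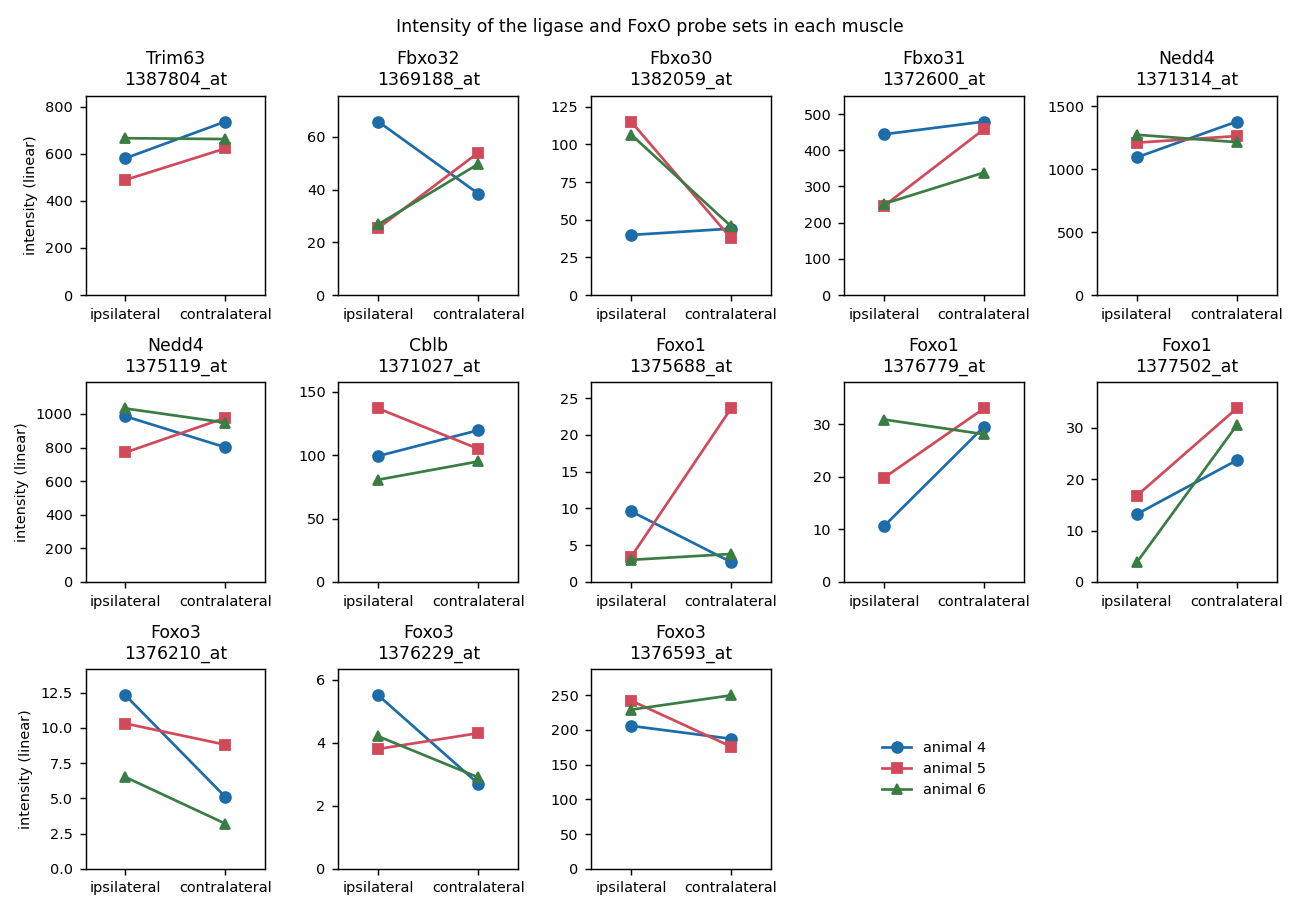
Linear intensity (vertical axis, from 0, on its own scale in each panel) of the 13 probe sets in ipsilateral (left) and contralateral (right) muscles, with a line joining both muscles of each animal. Fbxo30 lies at 107 and 115 in ipsilateral muscles 6 and 5, above every contralateral value, whereas animal 4 has 39.9 ipsilaterally, and the groups are separate only for the Foxo1 probe set 1377502_at.

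Neither of the classical atrophy ligases had a higher mean in the formerly denervated muscle. Trim63, a RING-finger ligase of the sarcomere that ubiquitinates thick filament proteins, had intensities of 582, 490 and 667 in ipsilateral muscles 4, 5 and 6, and of 738, 623 and 663 in the contralateral ones. Animals 4 and 5 were lower ipsilaterally to nearly the same degree, animal 6 had almost equal muscles, and the groups overlapped. The mean was 579 ± 88.6 ipsilaterally and 675 ± 58.0 contralaterally (SD, n = 3 each). The log2 differences of Trim63 were -0.33, -0.34 and 0.0076 in animals 4, 5 and 6, and their mean was -0.22 (SE 0.13, 95% interval -0.53 to 0.09). With limma's adjusted p of 0.888, Trim63 did not pass, and the interval left out a mean increase above 0.09. Animal 6 lay close to 0. With the arrays set to a common median or quantile normalized, Trim63 was lower in all 3 animals, but its mean changed little, to -0.21 and -0.24. Without animal 6 its mean was -0.34.

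Fbxo32, the F-box subunit that brings substrates such as the muscle factor MyoD to its ligase complex, was dim. Its intensities were 65.8, 25.4 and 26.8 in ipsilateral muscles 4, 5 and 6, and 38.5, 54.0 and 49.7 in the contralateral ones. Animals 5 and 6 had about equally lower ipsilateral values, animal 4 had a higher one, and the ipsilateral muscles lay on both sides of the contralateral range. The log2 differences were 0.59, -0.76 and -0.62, with a mean of -0.26 (SE 0.30, 95% interval -0.99 to 0.46, limma adjusted p = 0.941). Without animal 4 the mean of Fbxo32 was -0.69 (SE 0.24, adjusted p = 0.353). It was -0.017 without animal 5 and -0.086 without animal 6.

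The ligase with the largest mean difference was Fbxo30, known in mice as MUSA1, an F-box protein of denervation atrophy that is held down by bone morphogenetic protein signalling. Its intensities were 39.9, 115 and 107 in ipsilateral muscles 4, 5 and 6, and 44.1, 37.7 and 45.7 in the contralateral ones. The contralateral values lay close together, animals 5 and 6 were 3.06 and 2.33 times as high ipsilaterally, and animal 4 stayed within the contralateral range. The mean was 87.2 ± 41.2 ipsilaterally and 42.5 ± 4.23 contralaterally (SD, n = 3 each). The log2 differences were -0.10, 1.29 and 0.99, with a mean of 0.73 (SE 0.29, 95% interval 0.01 to 1.44). Its unadjusted p in limma was 0.0468 and its adjusted p 0.879. Without animal 4 the mean of Fbxo30 was 1.14 (SE 0.22, adjusted p = 0.159), while without animal 5 it was 0.44 and without animal 6 it was 0.59.

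Fbxo31 was lower in the ipsilateral muscle of all 3 animals. It codes for another F-box subunit, which in human cells directs cyclin D1 to degradation. Intensities were 444, 246 and 252 in ipsilateral muscles 4, 5 and 6, and 479, 458 and 338 in the contralateral ones. Ipsilateral muscles 5 and 6 lay below every contralateral muscle, but that of animal 4 did not, so the groups overlapped. The mean was 314 ± 113 ipsilaterally and 425 ± 76.0 contralaterally (SD, n = 3 each). The log2 differences of Fbxo31 were -0.11, -0.86 and -0.40, with a mean of -0.45 (SE 0.17, 95% interval -0.86 to -0.05, limma unadjusted p = 0.034, adjusted p = 0.879). It was -0.63 without animal 4 (adjusted p = 0.225) and -0.25 without animal 5. Because whole muscle was measured, fewer cells that express a gene and less RNA of it per cell cannot be told apart. The summed fibre markers above were also lower ipsilaterally, though nearly equal in animal 6. Of these 14 markers 5 were lower and 1 was higher in all 3 animals, beside 14.5% and 11.5% of all genes, and the higher one was the slow myosin Myh7, at 1.71. Of 12 macrophage and immune markers 4 were also lower in all 3 animals and 0 were higher, with sums of 3498 to 5085 in ipsilateral and 4911 to 5389 in contralateral muscles and no gene at 0. Of 9 fibroblast markers 4 were higher and 1 was lower in all 3, with sums of 10757 to 12243 in ipsilateral and 10787 to 12560 in contralateral muscles. The part of these cell types in the differences of Fbxo31 and the other members was not tested.

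Nedd4 and Cblb showed no common direction. Nedd4, a HECT-type ligase that ubiquitinates membrane receptors and channels, had a probe set (1371314_at) at 1095, 1212 and 1275 in ipsilateral muscles 4, 5 and 6, against 1379, 1264 and 1216 in the contralateral ones. Its other probe set (1375119_at) was at 986, 771 and 1033 ipsilaterally, against 801, 977 and 948 contralaterally. In both probe sets the groups overlapped, and in animal 4 the difference had opposite signs, -0.33 in 1371314_at and 0.29 in 1375119_at. The mean log2 difference of Nedd4 was -0.11 (SE 0.13, 95% interval -0.42 to 0.21) in the first and 0.03 (SE 0.15, 95% interval -0.35 to 0.40) in the second, with limma adjusted p-values of 0.946 and 0.992.

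Cblb, a RING-type ligase that in unloaded muscle marks the insulin receptor substrate IRS1 for degradation, had intensities of 99.3, 137 and 80.6 in ipsilateral muscles 4, 5 and 6, against 120, 105 and 95 in the contralateral ones. Animal 5 was higher ipsilaterally and animals 4 and 6 were lower. The log2 differences were -0.23, 0.34 and -0.20, with a mean of -0.03 (SE 0.18, 95% interval -0.46 to 0.40, limma adjusted p = 0.99).

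**Figure D2:**
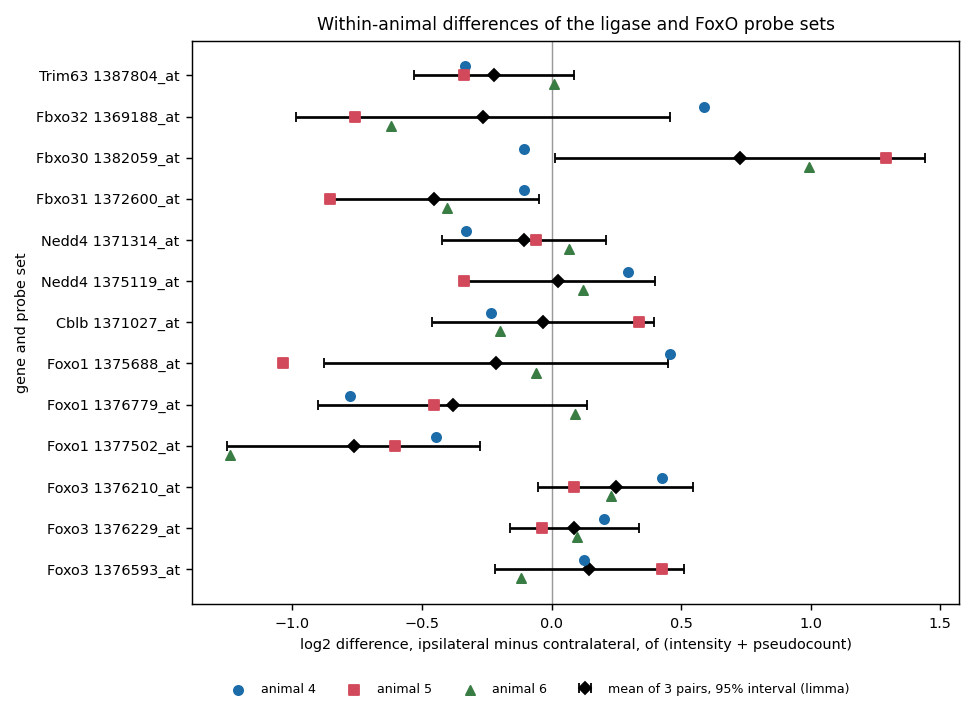
Log2 difference of ipsilateral minus contralateral (horizontal axis) for each probe set (vertical axis): coloured marks are the 3 animals, and black diamonds with bars are limma's mean of the 3 pairs with its 95% interval. The interval lies wholly above 0 for Fbxo30 (0.01 to 1.44) and wholly below 0 for Fbxo31 (-0.86 to -0.05) and the Foxo1 probe set 1377502_at (-1.25 to -0.28), before adjustment.

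Mean differences of the FoxO factors lay below 0 for Foxo1 and above 0 for Foxo3, but 5 of their 6 probe sets were dim. Among these 6, only the 95% interval of the Foxo1 probe set 1377502_at left out 0, before adjustment. A difference between Foxo1 and Foxo3 was not tested. Foxo1, a factor that is induced in fasting muscle, gave a mean below 0 in all 3 probe sets. In probe set 1377502_at its intensities were 13.2, 16.8 and 3.8 in ipsilateral muscles 4, 5 and 6, against 23.7, 33.8 and 30.5 in the contralateral ones. This was the 1 member probe set of 13 whose groups did not overlap, and 5.26% of all probe sets were lower without overlap. The mean was 11.3 ± 6.71 ipsilaterally and 29.3 ± 5.15 contralaterally (SD, n = 3 each). The log2 differences of Foxo1 there were -0.45, -0.61 and -1.24, with a mean of -0.76 (SE 0.20, 95% interval -1.25 to -0.28, limma unadjusted p = 0.00858, adjusted p = 0.879). All 6 values lay below the level called dim. The size depended on the value added before taking logs, with a mean of -1.31 at an added 2.9 and -0.42 at an added 43. The lowest value came from ipsilateral muscle 6, 1 of the 2 arrays with a high actin ratio, and without animal 6 the mean was -0.53. On that same array the Foxo1 probe set 1376779_at had its highest ipsilateral value, 30.9. A part of array quality in these values was not tested.

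The other probe sets of Foxo1 were less uniform. In 1376779_at intensities were 10.6, 19.8 and 30.9 in ipsilateral muscles 4, 5 and 6, against 29.5, 33.0 and 28.1 in the contralateral ones, a mean log2 difference of -0.38 (SE 0.21, 95% interval -0.90 to 0.14). That mean was -0.18 without animal 4 and -0.62 without animal 6. Animals 4 and 5 were lower ipsilaterally and animal 6 was slightly higher. In 1375688_at intensities were 9.6, 3.4 and 3.0 ipsilaterally, against 2.7, 23.6 and 3.8 contralaterally, so that a single high contralateral value in animal 5 set the mean difference of -0.21 (SE 0.27). Without animal 5 that mean was 0.20, and without animal 4 it was -0.55. The limma adjusted p-values of these Foxo1 probe sets were 0.885 and 0.948.

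Foxo3, the factor that in mouse muscle drives Fbxo32 and autophagy genes, had 1 probe set above the level called dim. In this probe set, 1376593_at, intensities were 206, 242 and 229 in ipsilateral muscles 4, 5 and 6, against 187, 176 and 250 in the contralateral ones. Animals 4 and 5 were higher ipsilaterally, animal 6 was lower, and the ipsilateral values lay within the contralateral range. The mean was 226 ± 18.4 ipsilaterally and 204 ± 39.8 contralaterally (SD, n = 3 each), and the mean log2 difference of Foxo3 was 0.15 (SE 0.15, 95% interval -0.22 to 0.51, limma adjusted p = 0.929). That mean was 0.0050 without animal 5 and 0.28 without animal 6. The dim probe set 1376210_at was higher in all 3 animals, with 12.3, 10.3 and 6.5 ipsilaterally against 5.1, 8.8 and 3.2 contralaterally and a mean log2 difference of 0.25 (SE 0.12), or 0.16 without animal 4. The dim probe set 1376229_at had 5.5, 3.8 and 4.2 ipsilaterally against 2.7, 4.3 and 2.9 contralaterally and a mean of 0.09 (SE 0.10), which was 0.030 without animal 4 and 0.15 without animal 5. At such intensities, far below the added 15.8, log2 differences say little about the size of a change.

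Counted together, 3 of the 13 member probe sets (23.1%) had the same direction in all 3 animals, 1 higher (Foxo3 1376210_at) and 2 lower (Fbxo31 and Foxo1 1377502_at). Over all probe sets 11.6% were higher and 13.8% lower in all 3 animals, 25.4% in all, so the members' share was close to the background. The count was 5 with the arrays set to a common median or quantile normalized, and 1 of the 7 members that were not dim. The share over all probe sets was not counted under these settings, so these counts have no background beside them. An unadjusted p under 0.05 was found for 3 of 13 (23.1%), namely Fbxo30 higher (2.84% of all probe sets) and Fbxo31 and Foxo1 1377502_at lower (2.6%). Without the pairing by animal it was found for 1, the Foxo1 probe set, and the share over all probe sets was not counted in that fit. The median log2 difference over the 13 probe sets was -0.11, beside -0.013 over all probe sets, and the median size regardless of sign was 0.22, beside 0.13. Among probe sets that were not dim it was 0.15 for members beside 0.13 for all. Taken singly, animals 4 and 5 had larger median sizes for members (0.33 and 0.43) than for all probe sets (0.19 and 0.24). Animal 6 went the other way, with 0.12 for members beside 0.19 for all. These values of single animals include dim probe sets. Several members share a gene, so these shares describe probe sets and not independent genes. The members were chosen with earlier results of these data known, so their shares are not those of an unselected set.

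The 3 animals shared 1 direction in 23.1% of the member probe sets, beside 25.4% of all probe sets. Disagreement between animals was thus not particular to the members. Animals 5 and 6 had the same sign in 6 of the 13 probe sets, animals 4 and 5 in 7, and animals 4 and 6 in 6, while over all probe sets the shares were 56.6%, 48.4% and 45.1%. Members higher in animals 5 and 6 and lower in animal 4 numbered 1 of 13 (Fbxo30), where 14.2% of all probe sets had this pattern, and 2 of 13 (Fbxo32 and Foxo1 1375688_at) had its reverse, where 16.7% did. Without animal 4, an unadjusted p under 0.05 was found for 4 of 13 members, Fbxo30, Fbxo31, Fbxo32 and Foxo1 1377502_at, where 11.5% of all probe sets had one. It was found for 1 of 13 without animal 5 (Foxo1 1377502_at) and for 1 without animal 6 (Foxo1 1376779_at). The share over all probe sets was not counted in these 2 fits, so their counts have no background beside them. Adjusted, 0.107% of all probe sets (17) and 0 members passed in the fit without animal 4.

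**Figure D3:**
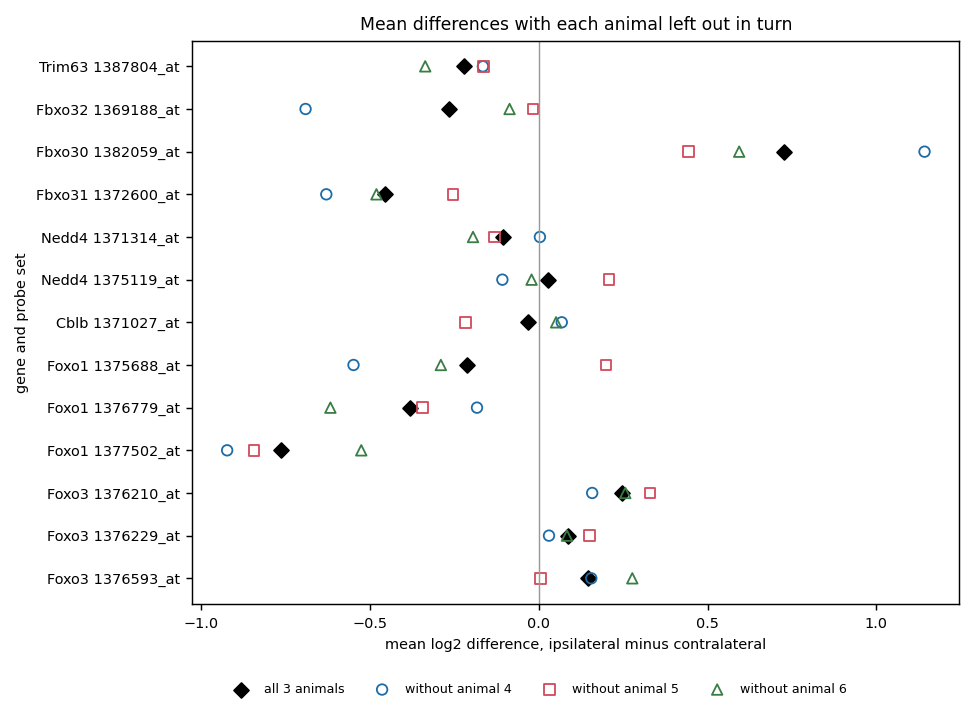
Mean log2 difference of ipsilateral minus contralateral (horizontal axis) for each probe set (vertical axis), from all 3 animals (filled diamonds) and with 1 animal left out (open marks). Fbxo30 moves between 0.44 and 1.14 and Fbxo32 between -0.69 and -0.017, whereas Nedd4 and Cblb lie on both sides of 0.

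Other genes of the ubiquitin pathway were read on the brightest probe set of each gene. Over all genes, 11.5% were higher and 14.5% lower in all 3 animals, while 2.86% had an unadjusted p under 0.05 and were higher, and 2.66% were lower. Of 39 measured ligase, conjugating enzyme and ubiquitin genes, 4 were higher and 5 lower in all 3 animals, 0 had an unadjusted p under 0.05 and were higher and 1 was lower, and the median log2 difference was 0.03. The 1 was Asb2, a subunit of a muscle ligase complex that acts on filamins and desmin. Asb2 had intensities of 2376, 1433 and 2191 in ipsilateral muscles 4, 5 and 6, against 3382, 3203 and 2560 in the contralateral ones. Every ipsilateral value lay below every contralateral one, as in 5.26% of all probe sets. The mean log2 difference of Asb2 was -0.63 (SE 0.20, limma adjusted p = 0.879). Without animal 5 the mean of Asb2 was -0.37, with an unadjusted p in limma of 0.117. Skp1, the adaptor that links F-box proteins such as Fbxo32, Fbxo30 and Fbxo31 to the cullin scaffold, differed by 0.33 (SE 0.18), with -0.12 in animal 6, and by 0.13 without animal 4 and 0.55 without animal 6. Ube4b differed by -0.33 (SE 0.15) in its brightest probe set, or -0.21 without animal 5, and by 0.11 in the other. The dim Ube3a differed by 0.52 (SE 0.22), or 0.82 without animal 4. Ndfip2, an adaptor that activates Nedd4, differed by 0.20 (SE 0.13).

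Among 26 measured regulators upstream of FoxO, 6 were higher and 3 lower in all 3 animals, 1 and 1 with an unadjusted p under 0.05, and the median log2 difference was 0.05. Prkaa1, a catalytic subunit of the energy sensor AMP-activated kinase, had intensities of 333, 281 and 236 in ipsilateral muscles 4, 5 and 6, against 198, 156 and 186 in the contralateral ones. All ipsilateral values lay above all contralateral ones, and the share of all probe sets with this pattern was not counted. Prkaa1 had the smallest p of its list and was named for it. Its mean log2 difference was 0.61 (SE 0.14, limma adjusted p = 0.879), but the dimmer probe set of Prkaa1 gave -0.03. Akt2, the kinase isoform of insulin signalling, differed by 0.24 (SE 0.13), with about -0.04 and -0.03 in its 2 dimmer probe sets. The coactivator Ep300 differed by 0.33 (SE 0.22), by 0.63 without animal 4 and by 0.058 without animal 5. The cytokine Tnf differed by -0.57 (SE 0.18) on dim values of 4.8, 5.3 and 7.7 ipsilaterally against 17.7, 7.3 and 27.8 contralaterally, and its other probe set gave 0.17. Ppargc1a was dimmer still, at 1.5 ± 0.36 ipsilaterally and 3.17 ± 1.27 contralaterally (SD, n = 3 each).

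Genes that respond to FoxO factors, other than the ligases, gave 4 higher and 2 lower in all 3 animals out of 28 measured, with 0 at an unadjusted p under 0.05 in limma and a median log2 difference of -0.02. Cdkn1a, the cell cycle inhibitor p21, had the largest mean, 1.16 (SE 0.66). Its intensities were 155, 925 and 963 in ipsilateral muscles 4, 5 and 6, against 311, 101 and 355 in the contralateral ones. As for Fbxo30, animals 5 and 6 were higher and animal 4 was lower, and the other probe set of Cdkn1a gave 1.83. The mean of Cdkn1a depended on single animals, being 0.23 without animal 5 and 2.20 without animal 4. The antioxidant enzyme Cat was higher in all 3 animals, by 0.27 (SE 0.12), and the arrestin-like Txnip and the Myc antagonist Mxi1 were lower in all 3, with differences of -0.28 (SE 0.14) and -0.24 (SE 0.11). Txnip was at -0.17 without animal 5, and the other probe set of Mxi1 gave 0.0072. Glul, glutamine synthetase, differed by -0.25 (SE 0.15), with -0.43 without animal 4 and -0.13 without animal 6.

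The 18 measured regulators that link denervation to the atrophy ligases gave 2 higher and 2 lower in all 3 animals, 0 at an unadjusted p under 0.05 in limma, and a median log2 difference of 0.12. Per animal, the median over these genes was -0.087 (animal 4), 0.16 (animal 5) and 0.14 (animal 6). Myog, the myogenic factor that in mice activates Trim63 and Fbxo32 after denervation, had intensities of 149, 405 and 325 in ipsilateral muscles 4, 5 and 6, against 188, 148 and 205 in the contralateral ones. Animals 5 and 6 were higher and animal 4 lower, whereas Trim63 was lower in animal 5 and nearly equal in animal 6. The mean of Myog was 0.56 (SE 0.30), or 0.99 without animal 4 and 0.16 without animal 5. Runx1 differed by 0.46 (SE 0.22), or 0.71 without animal 4 and 0.24 without animal 5. Smad2 differed by 0.26 (SE 0.16). Rela, a subunit of NF-kappaB, differed by -0.29 (SE 0.14) and Cebpb by -0.19 (SE 0.12).

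Of 16 measured genes whose proteins these ligases are known to ubiquitinate, 1 was higher and 3 were lower in all 3 animals, and the median log2 difference was -0.0068. The 1 with an unadjusted p under 0.05 in limma was Pdlim7, a substrate of Nedd4 in muscle. Pdlim7 had intensities of 1249, 548 and 596 in ipsilateral muscles 4, 5 and 6, against 1339, 1166 and 978 in the contralateral ones, a mean log2 difference of -0.62 (SE 0.20, adjusted p = 0.879). Its other probe set gave -0.20, and without animal 5 the mean of Pdlim7 was -0.40, with an unadjusted p in limma of 0.12. The values in animals 5 and 6 were clearly apart and those in animal 4 were close. Among transcripts of fibre proteins that Trim63 acts on or binds, Mybpc2, Tnni2, Ckm and Tnni3 had the smallest p in limma. The mean differences were -0.39 (SE 0.16) for Mybpc2, -0.26 (SE 0.17) for Tnni2 and -0.24 (SE 0.16) for the creatine kinase Ckm. The dim Tnni3 differed by 0.31 (SE 0.21), and the other probe set of Mybpc2 gave -0.79. With larger p in limma, Mybpc1 differed by 0.12 and Myl1 by -0.15. After quantile normalization Tnni2 was at -0.034 and Ckm at -0.0058, while Mybpc2 was at -0.29 and Tnni3 at 0.32. That scaling gives equal ranks equal values on every array, which leaves very bright transcripts such as Tnni2 and Ckm little room to differ. With the arrays set to a common median Tnni2 was at -0.25 and Ckm at -0.24. Without animal 5 the means were -0.23 for Mybpc2, -0.15 for Tnni2, -0.13 for Ckm and 0.046 for Tnni3. Without animal 6 they were -0.41 for Tnni2 and 0.57 for Tnni3. These are transcript levels, and protein levels or ubiquitination were not measured.

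**Figure D4:**
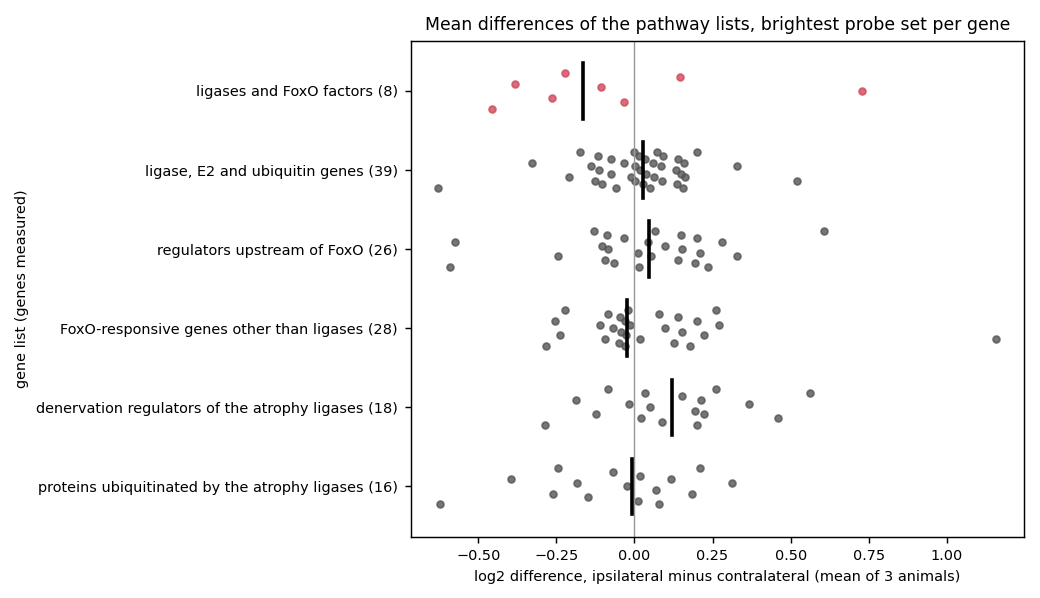
Mean log2 difference of ipsilateral minus contralateral (horizontal axis) for each gene of each list (vertical axis, with the number of genes measured), on the brightest probe set per gene; black bars are list medians and red points the 8 ligases and FoxO factors. The medians of the other lists lie between -0.023 and 0.12, that of the 8 ligases and FoxO factors lies at -0.16, and Cdkn1a (1.16) is the point farthest from 0.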

How the data were processed

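Total RNA of both tibialis anterior muscles of 3 rats was measured on 6 arrays. Groups come from the sample titles, where the abbreviation Cont was read as contralateral, and the title number gave the animal. The deposited intensities are linear, 1 per probe set and array, with a mean of about 150 on every array after the lowest and highest 2% are left out, as found from the values. Which software the authors used is not stated in the labels. From the 15923 probe sets, 57 controls were removed. The platform's gene annotation, possibly out of date, gave 1 symbol to 12789 probe sets, several to 312 and none to the 2822 it does not list, and 12754 gene IDs were found in a GRCr8 gene table, which changed 0 symbols.

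Values were used as log2(intensity + 15.8), the 20th percentile of all values, without further normalization. All 15866 probe sets were fitted so that dim members were kept, in 1 linear model per probe set with terms for side and animal (limma 3.58.1 under R 4.3.3), moderated with a variance trend on intensity (eBayes). P-values were adjusted by Benjamini-Hochberg across the whole table. Degrees of freedom were 2 residual and 4.09 prior. The number of arrays limits the precision. The pairing comes from the design, both muscles being of 1 animal: deviations from group means correlated at -0.021, 0.036 and 0.089 within animals 4, 5 and 6 over probe sets.

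Members and lists were chosen with earlier results of these data known. Named are all members and, per list, up to 5 genes with the smallest p, and in addition Mybpc1 and Myl1. Alternatives covered the pseudocount, normalization, a filter, the block, the trend and each animal left out. The procedure was tested on simulated data. How often it finds small changes is not given here, so a member that did not pass is not shown to be unchanged. Figures used matplotlib 3.10.9 in Python 3.11.15.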

Additional observations from a re-analysis of the deposited data

How the results depend on the processing

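In limma's fit, 0 probe sets had an adjusted p under 0.05 with either other pseudocount, quantile normalization, arrays set to a common median, a filter at the 40th percentile, no trend, and without the pairing by animal, and 0 to 17 did with 1 animal left out. The number of members with 1 direction in every animal was 3, also without the pairing (no replicate block). It was 5 after quantile normalization, where Trim63 and Foxo3 1376229_at joined, and 5 with arrays set to a common median. With the filter it was 1, because 6 of the 13 members are dim and were then not tested. Shares over all probe sets were not counted for these scalings or the filter. With 1 animal left out, where only 2 animals had to match, it was 6 to 7 of 13. Over all probe sets 45.1% to 56.6% matched in 2 animals. Among the 13 member differences, none reversed under the alternatives that kept all 3 animals, and 4 probe sets reversed when 1 animal was left out, each with a 95% interval that spans 0 in the fit of all 3 animals. With 1 animal left out, Nedd4 1371314_at ran from -0.19 to 0.0034, Nedd4 1375119_at from -0.11 to 0.21, Cblb from -0.22 to 0.068 and Foxo1 1375688_at from -0.55 to 0.20. The cause of these reversals was not tested. None of the 25 list genes named for the smallest p reversed in any alternative run, but Tnni2 and Ckm came close to 0 after quantile normalization. Counts of list genes with 1 direction in every animal moved by over 1.5 times in 24 of 100 comparisons, 21 of them with 1 animal left out. The lowest adjusted p of a member was 0.652 with the filter and 0.159 without animal 4. With 3 pairs, an exact sign-flip test of a single gene cannot give a two-sided p below 0.25. Intensities far below the added 15.8, as in most values of 2 probe sets of Foxo3 and 1 of Foxo1, carry little information on direction or size.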

Other observations

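Genes whose pattern was most like that of a member were looked up over the 6 libraries by Pearson correlation of log2 values, on the brightest probe set per gene above the 40th percentile. Closest to Trim63 were Lta4h, a leukotriene hydrolase (r = 0.991), Vapa (0.989), Pelo (0.985), Pick1 (0.979) and Pex13 (0.976), out of 7116 genes compared. These 5 shared the order of Trim63, with lower ipsilateral values in animals 4 and 5 and nearly equal ones in animal 6. Closest to Fbxo32 were Marchf5, a mitochondrial ubiquitin ligase (0.992), Ppp1r7 (0.99), Mapkapk3 (0.989), Exosc7 (0.983) and Fam32a (0.982), out of 7117, each higher ipsilaterally in animal 4 and lower in animals 5 and 6. Closest to the brightest Foxo1 probe set, 1376779_at, were Accs (0.985), Akap7 (0.975), Uqcr10 (0.975), Wnt2b (0.97) and Trpm4 (0.967). With 6 libraries and so many genes compared, high values are picked out by the search itself: 73 genes exceeded 0.9 for Trim63, 115 for Fbxo32 and 56 for Foxo1. The libraries share animals in pairs, and the correlations are given as a description only.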
